A study of Mus musculus with 4 samples.

Results

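Weak promoter regions are stretches of DNA at annotated gene starts where every library of the study had an accessibility peak, but only a faint one. They were found by merging all peaks of the 4 libraries that overlapped by at least 1 bp. A merged region was kept where all 4 libraries had a peak, every peak had a −log10 q under 5 in the authors' peak lists, and the peak with the highest −log10 q was annotated as a promoter by the authors. The rule kept 807 regions of 799 genes. They were 9.09% of the 8882 promoter regions with a peak in all libraries, 2.70% of the 29896 regions of any kind with a peak in all libraries, and 0.316% of the 255101 merged regions. For comparison, 6042 promoter regions (68.0%) were at or over the threshold in every library and are called strong, and 2033 (22.9%) passed it in some libraries only and are called mixed. Because the height of the peaks chose the regions, their q-values, folds and read densities are descriptions and were not tested against those of strong regions.

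The study used ATAC-seq, which marks accessible DNA by the places where a transposase can cut and insert adapters, on LβT2 cells (LbT2 and LbT2b in the labels), an established mouse line with features of the pituitary gonadotrope. After a night in serum-free medium the cells received vehicle or activin A at 1 nM for 6 h. Activin A is a ligand of the TGFβ family that stimulates gonadotropes to make follicle-stimulating hormone. There were 2 libraries per treatment from this 1 cell line, and the labels do not say whether they came from separate cultures, so the spread between libraries may be technical.

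A promoter is the stretch around the start of a gene where transcription factors and RNA polymerase assemble. Promoters of housekeeping genes are usually open in all cells, often lie in CpG islands and carry GC boxes, CCAAT boxes or ETS sites. Promoters of genes for another tissue are often closed, although many with a CpG island keep some accessibility in cells that make little of their transcript. MicroRNA genes are a special case: the annotated start is that of the hairpin, which can lie far inside the longer primary transcript.

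Sequences are shown for some members named for their place in the pituitary and activin lists or for their read density. They include stretches rich in G and C and stretches that are not. As a choice of a few, they do not stand for all weak regions. Each is the 250 bases upstream of the RefSeq start, 5′ to 3′ on the gene's strand (RefSeq, GRCm38.p6), and overlaps its weak region. Capitals mark matches, on either strand, to the GC box GGGCGG, the CCAAT box CCAAT, the TATA box TATAAA, the ETS site CCGGAAG, the E-box CACGTG and the CRE TGACGTCA, with overlapping matches counted. The positions are chr2:143545883-143546132 (+ strand) for Pcsk2, chr2:79456637-79456886 (- strand) for Neurod1, chr2:58357759-58358008 (- strand) for Acvr1c, chr3:54755332-54755581 (+ strand) for Smad9, chr2:181039178-181039427 (- strand) for Chrna4, chr5:104434861-104435110 (+ strand) for Spp1 and chr5:26105315-26105564 (- strand) for 5031410I06Rik.
Pcsk2: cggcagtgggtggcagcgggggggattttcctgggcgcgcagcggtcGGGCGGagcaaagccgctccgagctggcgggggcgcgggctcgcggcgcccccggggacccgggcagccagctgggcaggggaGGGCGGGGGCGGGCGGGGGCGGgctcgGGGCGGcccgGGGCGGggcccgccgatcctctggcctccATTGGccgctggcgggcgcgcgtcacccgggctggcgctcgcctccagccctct
Neurod1: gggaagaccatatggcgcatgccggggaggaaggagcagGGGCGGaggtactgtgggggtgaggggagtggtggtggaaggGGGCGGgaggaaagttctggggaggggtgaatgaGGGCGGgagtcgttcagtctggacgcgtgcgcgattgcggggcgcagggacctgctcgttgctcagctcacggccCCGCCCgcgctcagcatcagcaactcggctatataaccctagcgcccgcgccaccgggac
Acvr1c: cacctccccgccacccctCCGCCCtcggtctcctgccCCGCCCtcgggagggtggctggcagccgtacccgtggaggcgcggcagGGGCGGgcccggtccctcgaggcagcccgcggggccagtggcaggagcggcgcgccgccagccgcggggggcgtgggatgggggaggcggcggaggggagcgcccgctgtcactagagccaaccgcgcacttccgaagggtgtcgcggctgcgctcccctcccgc
Smad9: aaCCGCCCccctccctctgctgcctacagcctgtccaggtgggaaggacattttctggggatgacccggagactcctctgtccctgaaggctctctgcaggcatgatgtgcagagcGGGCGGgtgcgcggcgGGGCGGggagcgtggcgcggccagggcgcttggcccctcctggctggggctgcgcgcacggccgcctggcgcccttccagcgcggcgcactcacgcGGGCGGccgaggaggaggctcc
Chrna4: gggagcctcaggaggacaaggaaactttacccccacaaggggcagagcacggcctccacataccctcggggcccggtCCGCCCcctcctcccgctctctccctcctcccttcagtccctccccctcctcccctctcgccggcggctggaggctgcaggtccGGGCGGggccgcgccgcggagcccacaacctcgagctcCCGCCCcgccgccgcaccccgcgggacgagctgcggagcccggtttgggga
Spp1: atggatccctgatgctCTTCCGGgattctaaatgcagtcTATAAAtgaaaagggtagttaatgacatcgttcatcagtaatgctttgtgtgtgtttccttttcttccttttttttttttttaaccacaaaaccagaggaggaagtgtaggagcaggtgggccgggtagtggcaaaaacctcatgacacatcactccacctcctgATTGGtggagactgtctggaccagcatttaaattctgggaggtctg
5031410I06Rik: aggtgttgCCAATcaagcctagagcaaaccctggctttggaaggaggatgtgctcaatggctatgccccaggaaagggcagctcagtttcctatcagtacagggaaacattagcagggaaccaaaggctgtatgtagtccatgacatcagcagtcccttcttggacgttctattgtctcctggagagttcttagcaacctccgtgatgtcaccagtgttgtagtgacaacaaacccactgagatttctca

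The first 5 of these stretches were rich in G and C. G and C made up 82.4% of the bases upstream of Pcsk2, with 35 CpG dinucleotides and 7 GC boxes, and 79.6% upstream of Acvr1c, with 32 CpG and 3 GC boxes. Chrna4 (74.4%, 24 CpG), Smad9 (73.2%, 24 CpG) and Neurod1 (67.6%, 22 CpG) were also above the upper quartile of 32851 RefSeq promoters, which was 61.2% G and C and 16.0 CpG. The Spp1 stretch was poorer in G and C, at 43.6%, with 3 CpG, and 1 TATA box, 1 CCAAT box and 1 ETS site. The stretch of 5031410I06Rik had 48.8% G and C, 2 CpG and 1 CCAAT box. Of all RefSeq promoter stretches of this length, 32.7% held the GC box, 33.8% the CCAAT box, 12.4% the TATA box, 6.91% the ETS site, 6.02% the E-box and 1.55% the CRE. These are matches of letters only. Base composition was not compared between all weak and all strong promoters, since a RefSeq promoter could be assigned to only 66.3% of the weak and 76.5% of the strong regions.

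Weak regions were found at the annotated starts of 10 genes with Mir symbols, of which Mir99ahg is a host gene and the others are microRNAs. At 6 of them the region held a mature microRNA sequence itself: Mir190b, Mir200c, Mir7084, Mir432, Mir27b and Mir692-3. Mature sequences from RefSeq are shown for 5 of the 10, with the seed (bases 2 to 8) in capitals, because the seed sets which transcripts a microRNA can bind. The miR-200c and miR-203 families are known from epithelial cells.
mmu-miR-200c-3p: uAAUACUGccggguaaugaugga
mmu-miR-27b-3p: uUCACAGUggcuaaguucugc
mmu-miR-190b-5p: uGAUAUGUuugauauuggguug
mmu-miR-432: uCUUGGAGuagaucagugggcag
mmu-miR-203-3p: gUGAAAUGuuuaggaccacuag

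These 5 seeds all differed. Read density is given throughout as high-quality autosomal reads in a library's peak, per kb of that peak and per 1000000 such reads of that library, in the order vehicle 1, vehicle 2, activin 1 and activin 2. At Mir200c it was 1.65, 1.37, 1.68 and 1.43, and at Mir203 it was 2.67, 2.02, 2.66 and 2.30. In both genes the vehicle and activin values overlapped. At Mir432 it was 0.137, 0.0646, 0.0587 and 0.358, well below the usual member, so its peaks held few of the reads that the quality report counts.

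High-quality autosomal reads numbered 172146474 to 224226184 per library. Start-site enrichment of reads was 2.72 in vehicle 1, 2.48 in vehicle 2, 3.12 in activin 1 and 3.04 in activin 2, and vehicle 2 had 178358 peaks against 70692 to 85112 in the others. The cell label was checked on the promoters of marker genes. Of 15 gonadotrope markers, 11 had a promoter peak in all libraries, and 6 had a strong region, among them Lhb, Cga and Gnrhr. Nr5a1 had a promoter peak in 3 libraries and Lhx3 in 1, while Fshb and Dlk1 had none in any library. None of 10 fibroblast and endothelial markers and none of 6 blood cell markers had one in all libraries.

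The peaks of weak regions were low, short and poorly aligned between libraries. Their mean fold over the peak caller's background had a median of 2.38 (range 1.69 to 3.36), beside 4.23 in strong regions, and the merged regions were 904 bp wide at the median. A library's own peak covered only part of that. Median peak length was 456 bp in vehicle 1, 574 bp in vehicle 2, 625 bp in activin 1 and 489 bp in activin 2. In strong regions it was 846, 887, 998 and 938 bp in the same order. The part common to all libraries had a median of 28.6% of the merged region, against 72.4% in strong regions. In 567 members (70.3%) the peak was annotated as a promoter in all libraries, compared with 81.9% of mixed and 87.5% of strong regions. It was so annotated in 3 libraries in 149 members, in 2 in 57 and in 1 in 34. The widest merged regions were at Gse1 (3843 bp), Gm8994 (3733 bp) and Cdk6 (3291 bp).

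The read densities of weak regions lay below those of strong regions in every library, as the choice by peak height entails. The median number of reads in a weak peak was 135 in vehicle 1, 192 in vehicle 2, 234 in activin 1 and 152 in activin 2. As densities these were 1.69, 1.53, 1.75 and 1.78, beside 3.56, 3.06, 4.10 and 3.92 in strong regions. The quartiles of the members' mean density were 1.32 and 2.21. The classes overlapped, however: 12 of 789 autosomal members had a mean density above the strong median of 3.67.

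**Figure D1:**
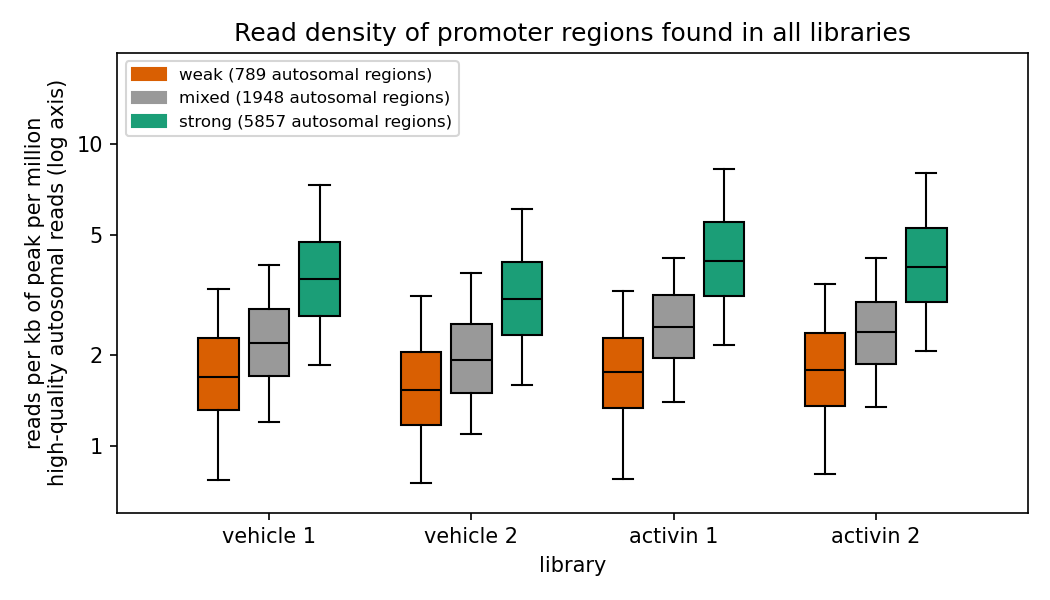
Read density (reads per kb of peak per 1000000 high-quality autosomal reads, log axis) of weak, mixed and strong promoter regions in each library. Boxes span the quartiles with the median as a line, and whiskers run from the 5th to the 95th percentile. The weak medians sit between 1.53 and 1.78 and the strong medians between 3.06 and 4.10, and the distributions overlap.

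The densest members had many reads and a low fold over the peak caller's background. Fcgbp, which encodes an IgG-binding mucus protein, had densities of 5.81, 5.72, 5.30 and 5.86 with a mean fold of only 1.72. Abcc8, which encodes the sulfonylurea receptor of the ATP-sensitive potassium channel, had 4.50, 3.70, 5.41 and 5.19 with a mean fold of 2.03. Chrna4, which encodes a nicotinic acetylcholine receptor subunit, had 4.91, 4.31, 4.59 and 4.78 with a mean fold of 1.81. In all 3 genes every library was well above the members' median. The 10 densest members had mean folds of 1.69 to 2.08, and over 789 members mean density and mean fold ran in opposite directions (Spearman correlation −0.58). Both come from the same libraries, and the cap on q chose the regions. The cause of this relation was not tested, and nothing is read from it.

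At the other end, 13 autosomal members (1.65%) had a mean density under 10% of the members' median, against 0.307% of strong regions. The region at Loxl2, a lysyl oxidase gene, had 0 high-quality reads in all libraries although each had a peak there with a fold of 2.09 to 2.64. Olfr1343-ps1, an olfactory receptor pseudogene, had 1 high-quality read in activin 2 and 0 in the other libraries. The RIKEN clone gene 5031410I06Rik had 0, 0, 1 and 2 reads, so its promoter sequence shown above was called open on reads that the quality report did not count. No density ratio is given for such regions, which lie at or under a floor of 3 reads per library. The role of reads that map to more than 1 place was not tested.

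The threshold cut a continuous scale. Just inside it were Nol12 (highest −log10 q 4.9976), Accs (4.9973) and ENSMUSG00000084950 (4.9973), and just outside it Clip1 (5.0127), Cyhr1 (5.0143) and Tubb6 (5.0165). The faintest members were the processed pseudogene Gm19030, whose highest −log10 q was 1.3039, Arap2 at 1.4375, and Gm17490 at 1.4576. The libraries did not weigh equally in the rule: 430 members had their highest q in activin 1, and 107, 110 and 160 had it in vehicle 1, vehicle 2 and activin 2.

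Weakness was spread unevenly over the kinds of genes. Of 8112 promoter regions of protein-coding genes, 655 (8.07%) were weak, below the 9.09% of all promoter regions. Of the 770 promoter regions of all other gene types, 152 (19.7%) were weak. Long intergenic RNAs stood at 16.4% (36 of 219), antisense RNAs at 18.4% (28 of 152), microRNAs by gene type at 18.8% (15 of 80) and small nucleolar RNAs at 22.2% (8 of 36). Pseudogenes had the highest share among types with more than 30 regions, 35 of 89 or 39.3%, and within them processed pseudogenes, which arise from copied transcripts and usually lack a promoter of their own, had 23 of 41 (56.1%). An antisense gene and its sense partner can share 1 accessible region, and the annotation assigns each peak to 1 of them. Near-identical gene copies are also uncertain, since reads of a copy may be placed at another.

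**Figure D2:**
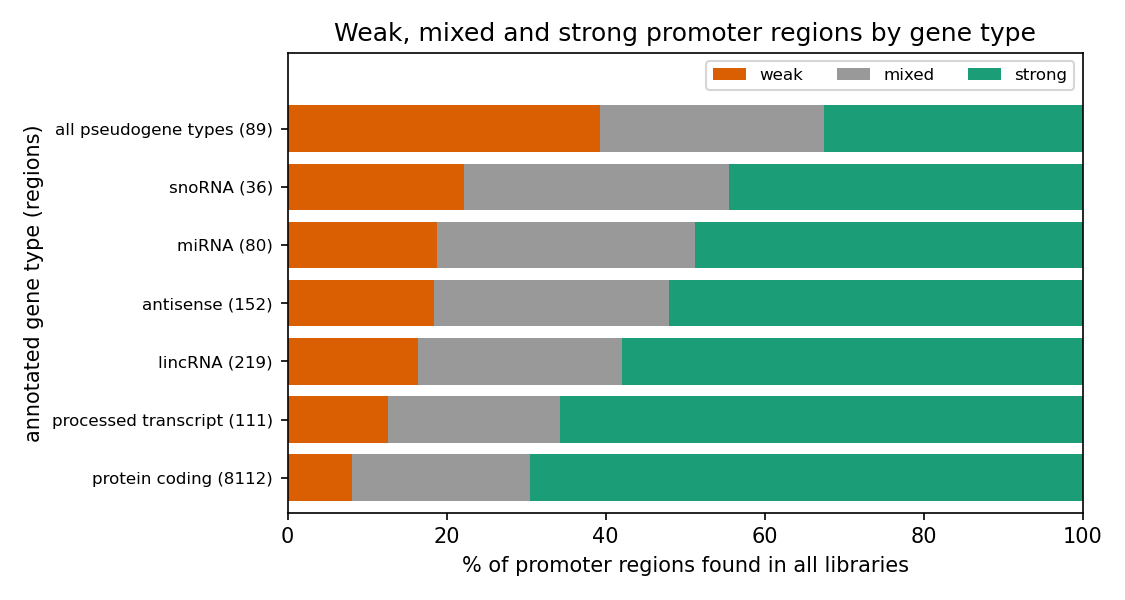
Weak, mixed and strong promoter regions as a percentage of all promoter regions with a peak in all libraries, by annotated gene type (number of regions in parentheses). The weak part is 8.07% of protein-coding regions and 39.3% of pseudogene regions.

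Genes of neurons and of early development were often among the weak promoters. Among 39 families and lists defined by gene symbol, 22 had a higher weak share than the 9.09% of all promoter regions, and 311 of the 807 members fell into at least 1 family. These shares describe the regions chosen, and no family was tested against the others. Neurotransmitter receptors had the highest share among families with at least 20 promoter regions, with 10 weak of 25 (40.0%), 9 mixed and 6 strong. The weak members were Adra1d and Adrb1 (adrenergic receptors), Chrna4 and Chrnb4 (nicotinic), Drd1 (dopamine), Gabra4 (GABA), Grik2, Grik3 and Grin1 (glutamate) and Htr4 (serotonin). Grin1, which encodes the obligate subunit of NMDA receptors, had densities of 3.60, 3.13, 2.76 and 2.98, and all its peaks were annotated as promoter. Adra1d had a mean density of 2.73 and a mean fold of 2.14. Drd1 was fainter, at 0.849, 1.3, 1.5 and 1.54, and its highest −log10 q was 3.274. Only 24 genes of 104 RefSeq symbols in this family had a promoter region in all libraries, so weak regions here stand beside a larger number of genes with none.

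Ion channel genes followed with 10 weak of 41 regions (24.4%). Among them were the calcium channel subunits Cacnb3 and Cacng3, the chloride transporter Clcn7, the potassium channels Kcnd1, Kcnh3 and Kcnq5, and the sodium channel gene Scn9a. Cacnb3 (mean density 2.93), Clcn7 (2.61) and Kcnh3 (2.44) were the densest. Receptors with Gpr and Adgr symbols had 7 weak of 29 (24.1%), among them Adgre5 (mean density 3.26) and Gpr83 (2.74). Genes of synapses and exocytosis had 5 weak of 33 (15.2%), but at a threshold of 3 their share was 3.03%, below the 3.40% of all promoter regions. Among them were Syt2, a calcium sensor of vesicle release (mean density 3.17), Vamp2, a vesicle SNARE (2.44), and Stx4a, a SNARE of the plasma membrane (2.29). The strongest peaks at Syt2 and Gpr83 are annotated as promoters although the listed nearest start lies 62540 bp away at Syt2 and at a distance of −5098 bp at Gpr83.

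Developmental transcription factors had 12 weak of 53 regions (22.6%). They were Barx2, Dlx2, Foxp1, Foxp2, Gata4, Gata5, Gsx2, Heyl, Lhx9, Msx3, Neurod1 and Nkx2-2, factors known from brain, heart, gut and skeletal development. Gata4 and Foxp1 each had another promoter region that was strong, 25.1 and 492 kb away. Gata5 had the highest mean density (3.28; 3.0, 3.13, 3.11 and 3.86 by library), followed by Msx3 (2.53) and Neurod1 (2.43). By contrast the Hox genes had a single promoter region in all libraries, and it was mixed. Testis and sperm genes had 6 weak of 35 (17.1%), with Spaca4, Tdrd6 and Spata18 densest at 3.30, 1.86 and 1.74. Genes of cilia and axonemal dyneins had 12 weak of 81 (14.8%), with Cfap46 (4.00), Dnaic2 (2.70) and Ttc34 (2.55) densest. The other weak cilium genes were Cep126, Cfap221, Cfap44, Cfap45, Cfap53, Cfap69, Dnah7c, Drc1 and Rsph4a, most of which serve motile cilia.

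**Figure D3:**
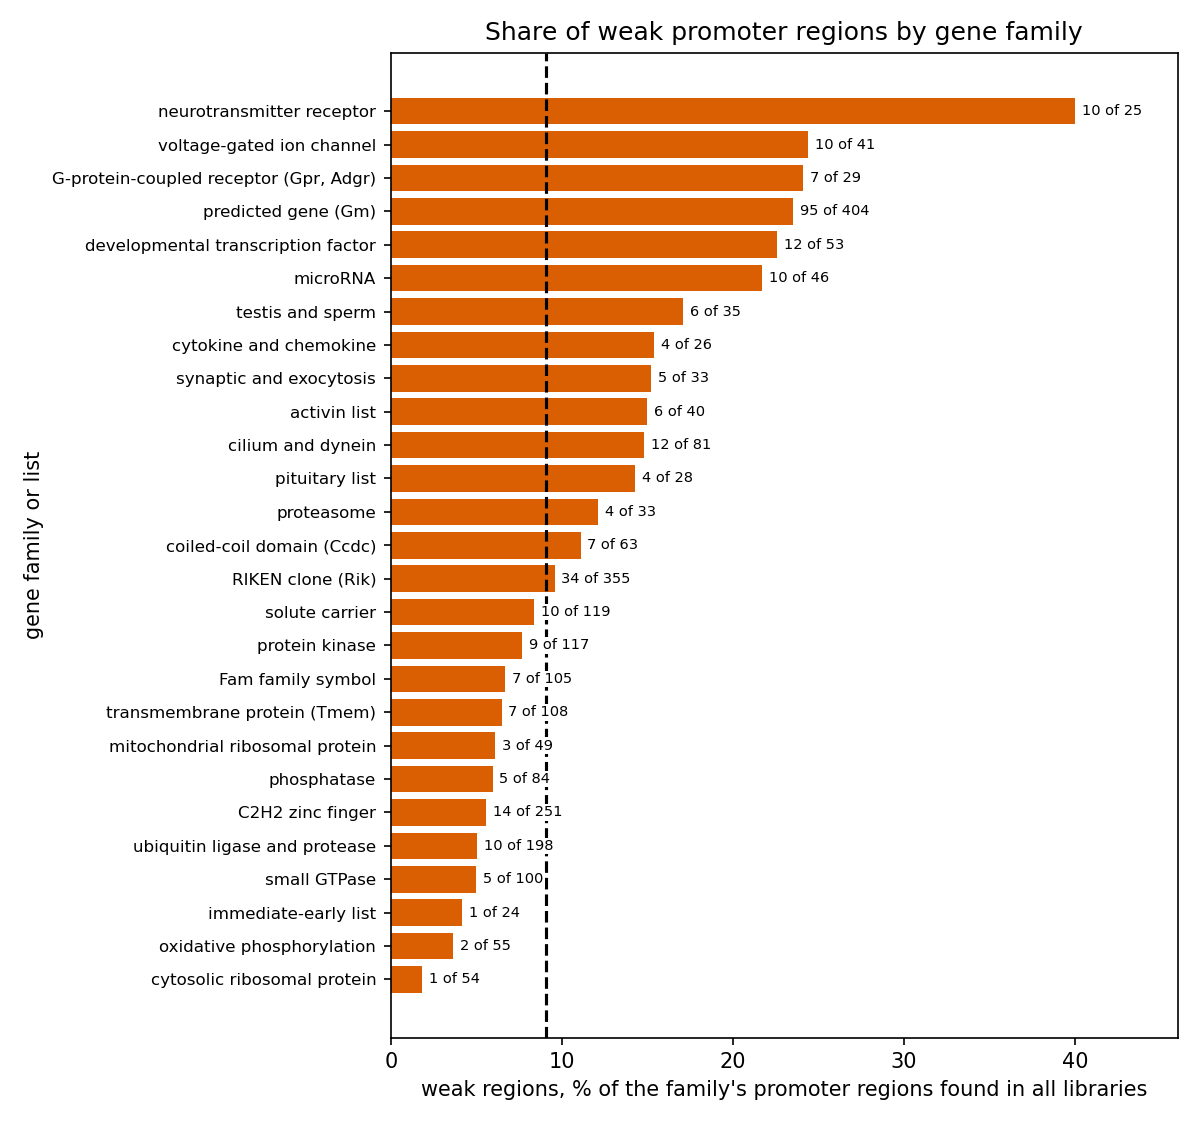
Weak regions as a percentage of each family's promoter regions found in all libraries, for families and lists with at least 20 such regions (counts at the bars). The dashed line is the 9.09% of all promoter regions. Neurotransmitter receptors reach 40.0% and cytosolic ribosomal proteins 1.85%.

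Smaller families with a high weak share need care because of their size. Cytochrome P450 genes had 3 weak of 12 (25%), Cyp1a1, an enzyme of xenobiotic metabolism (mean density 2.56), Cyp2d22 (1.80) and Cyp27a1, a sterol hydroxylase (1.52). The only 3 olfactory receptor genes with a promoter region in all libraries, of 1428 RefSeq symbols, were all weak: Olfr877 (1.16), Olfr229 (0.880) and the pseudogene Olfr1343-ps1 (0.00343). Vomeronasal receptors had no promoter region in all libraries. Genes of cytokines, chemokines and their receptors or induced proteins had 4 weak of 26 (15.4%): Tnfaip2, Cxcl14, Cxcr4 and Il22ra1. Predicted genes with a Gm symbol had 95 weak of 404 (23.5%), with Gm14321 (3.28), Gm11744 (3.16) and Gm20447 (2.79) densest, and RIKEN clones had 34 of 355 (9.58%).

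Most families of basic cell function had a weak share below the 9.09% of all promoter regions, some on small counts or by little. Cytosolic ribosomal proteins had 1 weak region of 54 (1.85%), Rpl4, with densities of 1.48, 1.34, 1.60 and 1.5. Oxidative phosphorylation genes had 2 of 55 (3.64%), Cox6c, a cytochrome c oxidase subunit, and Ndufaf1, an assembly factor of complex I. Histones had 0 of 17. Ubiquitin ligases and proteases had 10 of 198 (5.05%), with Rnf112, Kctd10 and Trim15 densest, and C2H2 zinc finger genes had 14 of 251 (5.58%), with Zfp853, Zfp13 and Zfp819 densest. Small GTPase symbols had 5 of 100 (5.00%), with Rasl10a, Rasgrp2 and Rasl10b densest. Solute carriers (10 of 119, 8.40%) and protein kinases (9 of 117, 7.69%) lay near the overall share. The densest solute carriers were the monocarboxylate transporter Slc16a3 (mean density 3.13) and the nucleoside transporter Slc29a1 (2.74). The densest kinase symbols were Camk2b, a calmodulin-dependent kinase subunit of neurons (3.84), Cdk2ap1 (2.92), which is no kinase itself, and Pak6 (2.60). Phosphatase symbols had 5 of 84 (5.95%), although at a threshold of 10 their 26.2% was level with the 26.0% of all promoter regions. Ppp1r9b (mean density 2.69), which encodes spinophilin of dendritic spines, was the densest. Mitochondrial ribosomal proteins had 3 of 49 (6.12%), Mrps6, Mrpl22 and Mrps22. Proteasome genes were an exception among the basic functions, with 4 of 33 (12.1%): the core subunits Psmb4, Psmb5 and Psmb7 and the assembly chaperone Psmg3. Their share fell to 0 of 33 below a −log10 q of 3 and was below that of all promoter regions at a threshold of 10, so its direction depends on the threshold.

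Some weak promoters belong to genes of the pituitary or of the activin pathway. Of 28 promoter regions of the pituitary list 4 were weak (14.3%), and of 40 of the activin list 6 were weak (15.0%), with Tgfbr3l in both. At a threshold of 3 the pituitary list had 0 weak regions, below the 3.40% of all promoter regions, and the activin list had 3 (7.5%). Tgfbr3l encodes the inhibin B coreceptor of gonadotropes. Its weak region had densities of 3.11, 2.33, 3.29 and 3.26. The activin values lay above both vehicle values by little, and the gene had another, mixed promoter region. Spp1 encodes osteopontin, a secreted phosphoprotein, and was listed as a gonadotrope marker. Its densities were 1.87, 0.921, 1.14 and 1.14, so the vehicle libraries enclosed the activin libraries.

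Neurod1 and Pcsk2 were listed as markers of other pituitary cells. Neurod1 encodes a basic helix-loop-helix factor of corticotropes, neurons and islets, and Pcsk2 the prohormone convertase PC2, which cleaves peptide hormone precursors. Densities at Neurod1 were 2.28, 2.29, 2.64 and 2.51, higher in both activin libraries on this scale and lower in both once libraries were centred on their median region, and those at Pcsk2 were 2.26, 2.83, 2.13 and 1.97, lower in both. These were the only 2 of 15 markers of other pituitary cells with a peak annotated as their promoter in all libraries. Crhr1 had a mixed promoter region, with such a peak in 3 libraries and a highest −log10 q of 5.38. Gh, Prl, Pomc and Tshb, the hormone genes of those cells, had a promoter peak in at most 2 libraries.

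In the activin pathway the weak members had several roles. Acvr1c encodes the type I receptor ALK7, and its densities were 1.62, 1.24, 1.74 and 1.67, with both activin values above both vehicle values. The ligand gene Bmp6 had 2.78, 2.14, 1.40 and 2.52, and Ltbp2, which encodes a latent TGFβ binding protein, had 1.66, 1.34, 1.13 and 1.70. In both the groups overlapped.

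Smad9, which encodes a SMAD of the BMP branch, had 1.99, 1.23, 1.44 and 1.11, and Tgif2, which encodes a repressor that binds SMADs, had 2.59, 2.04, 2.14 and 3.0. These ranges overlapped as well. Of the immediate-early list, which holds genes of the early response to a stimulus, 1 of 24 promoter regions was weak (4.17%). It was Fosl1, which encodes the AP-1 protein FRA-1, at 1.55, 2.45, 2.26 and 2.81. The −log10 q of its peaks was 1.43 in vehicle 1, 1.91 in vehicle 2, 4.42 in activin 1 and 4.18 in activin 2, while its densities overlapped. In densities scaled to all reads of a library, as these are, the groups did not overlap in 62.2% of the 13871 regions tested for activin with activin higher, and in 3.73% with activin lower. Of the 10 genes, Neurod1, Tgfbr3l and Acvr1c were of the first kind and Pcsk2 of the second, and no more is read from them. Only Neurod1 was itself among the regions tested, so for the other genes these shares come from an unlike set.

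**Figure D4:**
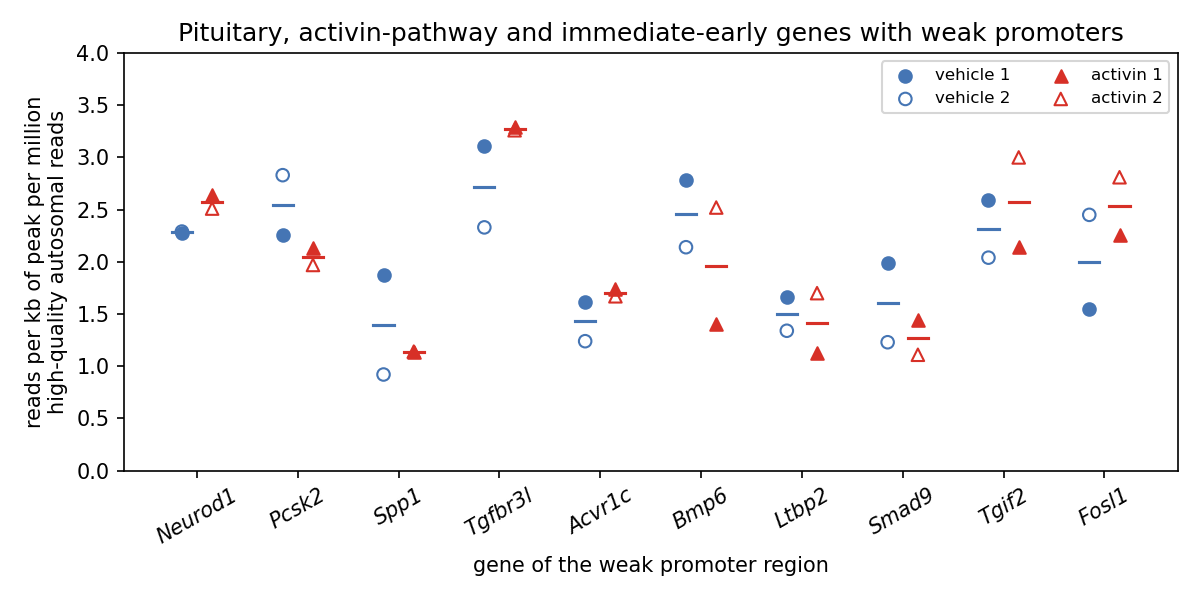
Read density (reads per kb of peak per 1000000 high-quality autosomal reads) at the 10 weak promoter regions of the pituitary, activin and immediate-early lists. Points are single libraries (circles vehicle, triangles activin, filled for library 1 and open for library 2) and short lines are group means. In 6 of the 10 genes (Spp1, Bmp6, Ltbp2, Smad9, Tgif2 and Fosl1) the groups overlap.

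Some weak promoters lay at another start of a gene that had a strong promoter elsewhere. In 74 members (9.17%) the same gene had another promoter region that was strong. The same held for 5.76% of mixed regions, and 3.18% of strong regions had a second strong one. At Birc6, an inhibitor of apoptosis, the weak region (highest −log10 q 3.82) lay 140 kb from a strong one whose lowest −log10 q over the libraries was 68.7. At Fam160a2 a region of 1.47 lay 9.72 kb from one whose −log10 q was 73.4 or more. Asph, Eef1a1 and Lasp1 were similar, with gaps of 24.6, 6.27 and 5.19 kb. Members named above with their families also had a strong promoter elsewhere. Among these were Gata4 (25.1 kb away), Foxp1 (492 kb), Stx4a (16.0 kb), Slc16a3 (0.566 kb) and Mrps6 (46.5 kb). Of 724 members whose gene matched RefSeq, 233 (32.2%) lay more than 1 kb inside the RefSeq span of their own gene. The share was 21.3% in mixed and 14.2% in strong regions. In 160 members (19.8%) the gene of the promoter annotation was not the gene listed as nearest, compared with 22.5% of mixed and 27.2% of strong regions.

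Of the members, 11 (1.36%) had a strong region of any kind within 1 kb, compared with 1.33% of mixed and 0.877% of strong promoter regions. The median distance to a strong region was 44.5 kb, compared with 38.2 kb from a strong promoter region to the next strong region. Some weak promoters stood in runs of at least 3 genes no more than 200 kb apart. On chromosome 5, between 25988361 and 26121913 (GRCm38), 5 of 7 promoter regions were weak and 1 was strong. The weak regions were at Gm21698, Gm5067, Gm5862, 5031410I06Rik and Gm10220, symbols of predicted genes and a RIKEN clone. Of these, 5031410I06Rik had almost no high-quality reads (mean density 0.00731). On chromosome 17, between 36092820 and 36229443, 5 of 7 were weak and none was strong, at Gm20530, BC023719, Gm20447, Gm8835 and ENSMUSG00000092612. A run of another kind lay on chromosome 3, between 89266468 and 89338131, with the protein-coding genes Dpm3, Slc50a1 and Efna3 and the clone 4731419I09Rik among 6 promoter regions. By chromosome the weak share ran from 5.65% on chromosome 10 to 12.2% on chromosome 5.

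The effect of activin was tested on read densities at 13871 shared regions, which are autosomal regions with 1 peak per library and a common part of at least 50% of the merged region. Of the members, 148 (18.3%) met that rule, compared with 85.3% of strong regions. By limma with Benjamini-Hochberg adjustment over all shared regions, 0 of the 148 members were called at an adjusted p of 0.05, and the share called over all regions was 0%. The smallest adjusted p of a member was 0.405. At an unadjusted p of 0.05, 13 members were lower after activin and 0 higher, beside 5.91% and 3.62% of all shared regions. The groups did not overlap in 9 members that were higher and 70 that were lower, against 20.9% and 20.5% of all shared regions.

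The median log2 change of the 148 members was −0.15 (quartiles −0.23 and −0.03), with 34 higher and 114 lower, while the median was −0.00 over all shared regions and 0.04 at strong promoters. In a fit of all regions with peaks in 4 libraries, which took in 789 members, their median was −0.05, with 337 higher, 452 lower and 0 called. This direction rests on the scaling of the libraries. With libraries scaled to all their high-quality reads instead of their median region, the median of all shared regions moved to 0.27 and that of the members to 0.13, with 121 higher and 27 lower, and still below the median of all. The rule is not neutral here either, since it capped q in every library and activin 1 most often held the highest. The direction is therefore given as a description only.

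**Figure D5:**
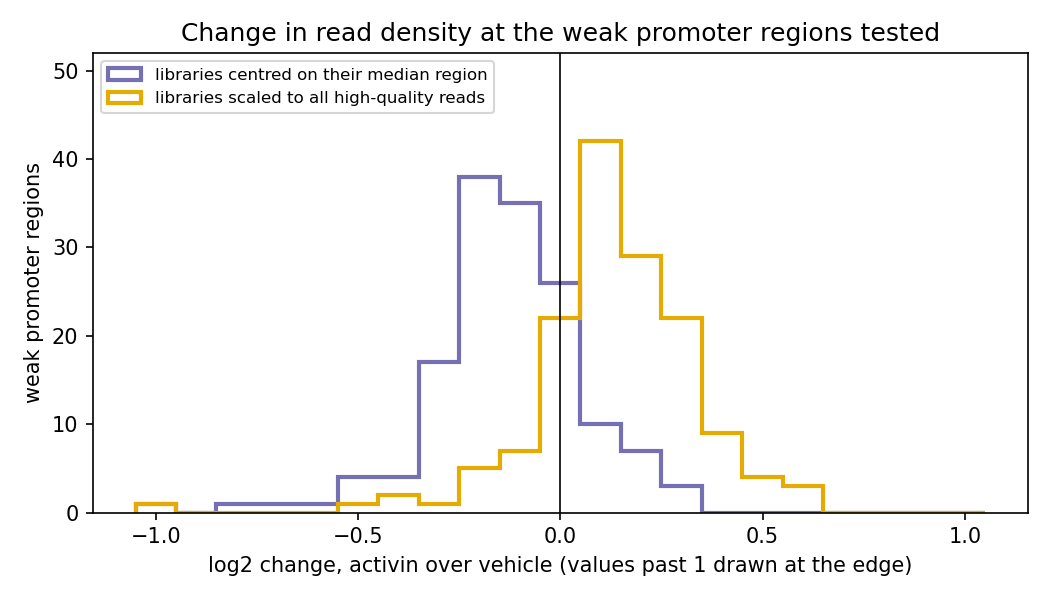
Number of tested weak promoter regions by log2 change in read density, activin over vehicle, under 2 scalings of the libraries (148 regions each). Centred on the median region, the members have a median of −0.15, and scaled to all high-quality reads a median of 0.13.

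None of the members with the smallest p passed the adjusted threshold. Tmem119, which encodes a transmembrane protein known from bone and microglia, had densities of 3.42, 2.90, 2.87 and 2.65. Both activin libraries lay just below both vehicle libraries. With libraries centred on their median region, the log2 change of Tmem119 was −0.47 ± 0.11 (SE, 2 libraries per group, limma adjusted p = 0.405). Plek (pleckstrin, a protein kinase C substrate) changed by −0.50 ± 0.15, Lasp1 (an actin-binding LIM protein) by −0.46 ± 0.14, Htra3 (a serine protease) by −0.34 ± 0.11, and Il22ra1 (an interleukin-22 receptor chain) by −0.45 ± 0.15, with limma adjusted p from 0.428 to 0.443. These changes were fitted with libraries centred on their median region, while the densities are scaled to all high-quality reads. On the scale of the densities they were −0.19 at Tmem119, −0.23 at Plek, −0.19 at Lasp1, −0.07 at Htra3 and −0.17 at Il22ra1. Their limma adjusted p then ran from 0.366 to 0.754. Without division by peak length, the centred changes were −0.03 at Tmem119, 0.14 at Plek, −0.02 at Lasp1, −0.16 at Htra3 and −0.17 at Il22ra1. All were closer to 0 than with the division, and the sign turned at Plek.

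In the higher direction the smallest p were weaker still. Zfp957, a zinc finger gene, had densities of 1.17, 0.917, 1.58 and 1.46, so that both activin libraries were above both vehicle libraries. With libraries centred on their median region, its log2 change was 0.28 ± 0.18 (limma adjusted p = 0.638). Mir27b had 1.48, 1.19, 1.89 and 1.90 and a log2 change of 0.24 ± 0.16. The lincRNA ENSMUSG00000097223 changed by 0.34 ± 0.22, Arhgef2 (a guanine nucleotide exchange factor) by 0.21 ± 0.15 and Alpl (tissue-nonspecific alkaline phosphatase) by 0.16 ± 0.15, with limma adjusted p from 0.640 to 0.751. All these changes are centred. On the scale of the densities they were 0.55 at Zfp957, 0.51 at Mir27b, 0.62 at ENSMUSG00000097223, 0.49 at Arhgef2 and 0.44 at Alpl. Their limma adjusted p then ran from 0.0785 to 0.130. Without division by peak length the centred values were 0.01 at Zfp957, 0.03 at Mir27b, 0.03 at ENSMUSG00000097223, 0.16 at Arhgef2 and −0.29 at Alpl. Neurod1 was the only listed pituitary, activin or immediate-early gene among the 148, with a log2 change of −0.10 ± 0.12 (limma adjusted p = 0.817). With libraries scaled to all high-quality reads it was 0.17.

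One member was called only under other settings. At AL669951.1, a pseudogene on chromosome 11, the libraries held 32, 32, 0 and 30 high-quality reads, so that activin 1 alone was empty and the other activin library was level with vehicle. Its log2 change was −2.80 ± 1.3 (limma adjusted p = 0.534), −2.53 ± 0.79 with libraries scaled to all high-quality reads (limma adjusted p = 0.0493) and −5.24 ± 0.89 without activin library 2 (limma adjusted p = 0.0496). The share of all shared regions called lower in those settings was 0.375% and 0.0649%.

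Weak regions together took a small part of the reads. Of each library's high-quality autosomal reads they held 0.0749% in vehicle 1, 0.0817% in vehicle 2, 0.0979% in activin 1 and 0.0818% in activin 2. The activin mean was 0.0899% ± 0.0114 and the vehicle mean 0.0783% ± 0.00484 (SD, n = 2). The 2-sided exact permutation p was 0.333, the lowest possible with 2 libraries each, so this test cannot decide whether they differ. Since q in these same libraries chose the regions, the shares are a description. These sums cover each library's own peaks, whose total length was 447 and 547 kb in vehicle and 563 and 470 kb in activin. The median log2 density of weak less that of strong promoter regions was −1.06 and −0.981 in vehicle and −1.22 and −1.12 in activin. Both classes were set by q in these same libraries, so these values are a description. The median −log10 q of strong regions was 14.2 in vehicle 1, 12.9 in vehicle 2, 23.7 in activin 1 and 18.4 in activin 2.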

How the data were processed

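ATAC-seq was done on 4 libraries, 2 per treatment, grouped by their titles. Per the submitters' processing notes, Bowtie2, MACS2 and HOMER were used on GRCm38 (mm10), without versions. The authors deposited, for each library, broad peaks with a fold enrichment (a ratio over the caller's background), the −log10 of the p-value and q-value, and a score. In 100.0% of peaks the deposited score equalled 10 times the −log10 q, cut to a whole number. Peaks were called per library, so their presence depends on depth. Per the file headers, HOMER annotated the peaks, and ataqv 1.3.1 counted high-quality autosomal reads per peak, which leaves the 18 members on chromosome X without densities. Multi-mapping reads are treated by each tool in a way not given in the sources used here.

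Peaks were merged with Python 3.11.15 (pandas 2.3.3). Gene and type are those of the promoter annotation, and 22 members had no symbol in the files and keep their identifier. Families were defined by symbol patterns, which catch some neighbours (Rasgrp2, Cdk2ap1 and Tnfaip2 are examples). The members, lists and families were chosen with earlier results of these data known. A gene can count in several families, and no family was tested. Genes were named by a rule: the smallest p in each direction, the nearest to the threshold, the faintest, the densest, the sparsest, the widest, all members of the pituitary, activin and immediate-early lists, and the 3 densest of each other family. Some genes that the rule names are not reported here. Names beyond it, such as full family lists and AL669951.1, were chosen after their values were seen.

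Differences were fitted with limma 3.58.1 in R 4.3.3 on log2(reads + 1) per kb of each peak, centred on each library's median, with a trend and no block, and adjusted over all shared regions. A fold change on this scale understates change where reads are few. Reads stand in a quality report and not in a count table, so no count model was run. Single values were compared with exact permutation tests (scipy 1.17.1), which cannot go below p = 0.333 with 2 libraries against 2. Alternatives varied the threshold, overlap, annotation, scaling, pseudocount, read minimum, length and replicates.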

Additional observations from a re-analysis of the deposited data

How the results depend on the processing

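The number of weak promoter regions depends on where the line is drawn. It was 302 with every peak under a −log10 q of 3 and 2310 under 10, and 167 members had a common part of at least 50% of the merged region. With a promoter annotation required in all 4 libraries it was 567, and in any library 1016. With the rule applied to the other 3 libraries it ran from 910 to 1401, the highest without activin library 1. The count of families above the share of all promoter regions stayed within 1.5 times of 22 at both other thresholds. At a threshold of 3, the direction of the family's share against all promoter regions reversed for solute carriers (a difference of 0.800 percentage points), synapse and exocytosis genes (−0.370), proteasome (−3.40), kinases (0.0200), Ccdc symbols (−1.81) and the pituitary list (−3.40), and at a threshold of 10 for proteasome (−7.80) and phosphatases (0.200).

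For activin against vehicle the number of members called was 0 in limma, and 1 with libraries scaled to all high-quality reads or without activin library 2, AL669951.1 in both. In a fit without 1 library the lone library of that group is assumed to vary like the others. Leaving out each library in turn gave 0 to 1 calls and median changes of −0.17 to −0.11. The median change reversed to 0.13 when scaled to all high-quality reads and was −0.05 over all regions with peaks in 4 libraries (789 members, 0 called). Without division by length the change reversed at Alpl (−0.29) and Plek (0.14) and came closer to 0 at the other 8 named regions. The labels give both groups the numbers 1 and 2 but state no pairing. With the replicate block 0 members were called, and the median change was −0.15. Deviations of same-numbered libraries from their group means had a correlation of −0.03 over 13871 regions. With 2 libraries per group this cannot tell whether same-numbered libraries were prepared together. The share of reads and the weak-to-strong gap kept their direction under every alternative run, with differences of 0.00353 to 0.0196 and of −0.201 to −0.101 when a library was left out. The cause of these changes was not tested. The comparison of base composition and a count model were not run. With a mean of at least 50 reads, 142 members were tested and 0 called (smallest limma adjusted p 0.398).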
